A study of Mus musculus with 12 samples.

Results

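Interferon-stimulated genes were followed through 4 groups of mouse bone marrow-derived dendritic cells (BMDCs), 42 genes of the 55335 listed, found by their symbols. All 42 were found, and all 42 passed the filter on low counts that left 14357 genes to be tested. BMDCs were grown for 6 days with GM-CSF from marrow of C57BL/6 CreER mice, which express a tamoxifen-inducible Cre recombinase from Rosa26, and the floating CD11c+ cells were selected. Every group had this genotype and 3 libraries. The study added 4-hydroxytamoxifen on the first day of culture for gene deletion, and its text does not say whether these cultures received it. WT received no LPS and no JSH-23. WTL received lipopolysaccharide (LPS) of Escherichia coli, the ligand of TLR4, at 100 ng/ml for 3 h. WT + JSH23 received JSH-23, an inhibitor of the nuclear entry of the NF-κB subunit RelA, at 100 µM for 3 h, and WTL + JSH23 received JSH-23 followed by LPS. The solvent given to the groups without JSH-23, and whether the JSH-23 groups were cultured on the same days as the others, are not given in the sources used here, so that JSH-23 cannot be told apart from either. The animals per library were not stated, and p values then measure the spread between libraries only.

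Type I interferon binds the receptor Ifnar1-Ifnar2, and the kinases Jak1 and Tyk2 then activate transcription factors, Stat2 and Irf9 among them, that bind the interferon-stimulated response element (ISRE) of its target genes. The products act against viruses at entry, translation, RNA stability and exit, or detect foreign nucleic acid. Cells also transcribe these genes at a resting, or tonic, level that needs only trace amounts of interferon, while LPS raises them further through TLR4, the adaptor Ticam1, Irf3 and newly made interferon beta. The level without LPS and the part added by LPS were therefore described apart.

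The sequence through which the factors act was looked up first. RefSeq promoter windows (GRCm38.p6, from 250 bases before the start to 50 after it) were found for 32 of the 42 genes. The core GAAANNGAAA, searched on both strands and with overlapping matches counted, was present in 13 of these 32 (40.6%), against 3.99% of all genes in the table. The κB consensus was present in 7 (21.9%, against 9.55% of all genes), and 3 had both. Of these 7, Ifit2, Isg20, Oas3 and Ifitm3 were lower with JSH-23 without LPS, whereas Oasl1, Epsti1 and Bst2 did not pass. Whether κB matches go with the changes was not tested. Stretches before the start are shown 5′ to 3′ on the strand of the gene, with the matches in capitals, for genes that fell with JSH-23 and for Bst2, which did not pass without LPS.
Ifit3 (chr19:34583358-34583441, plus strand): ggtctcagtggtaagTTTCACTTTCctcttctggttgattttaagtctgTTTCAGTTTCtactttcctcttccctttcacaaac
Ifit1 (chr19:34640770-34640838, plus strand): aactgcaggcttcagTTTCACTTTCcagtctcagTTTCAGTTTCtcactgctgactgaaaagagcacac
Isg15 (chr4:156200850-156200911, minus strand): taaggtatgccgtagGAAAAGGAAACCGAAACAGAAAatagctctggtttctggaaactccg
Oas1a (chr5:120907526-120907560, minus strand): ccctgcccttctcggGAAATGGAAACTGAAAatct
Rsad2 (chr12:26456538-26456587, minus strand): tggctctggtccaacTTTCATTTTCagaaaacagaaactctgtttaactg
Bst2 (chr8:71537562-71537617, minus strand): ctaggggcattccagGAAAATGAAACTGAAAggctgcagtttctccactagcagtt
The stretch of Ifit3b at chr19:34607754-34607837 was identical to that of Ifit3 at 84 of 84 bases, and Ifit1 carried the same pair of matches closer together. Matches in Isg15, Oas1a and Bst2 overlapped each other. In the windows searched, Oasl1, Ifit2, Cmpk2, Samhd1 and Daxx held no match to the core, although Ifit2, Cmpk2 and Daxx were among the genes with the larger falls. The median log2 fold change with JSH-23 in cells without LPS was -0.53 for the 13 genes with a match and -0.49 for the 19 without. Under LPS these medians were -0.85 and -0.68, and the ranges overlapped in both settings.

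The libraries held 24664724 to 34837847 expected counts, and 3.15% to 3.64% of these were mitochondrial. CPM below are counts divided by the library size, itself corrected with TMM factors (trimmed mean of M values), and log2 fold changes and p values are from edgeR's quasi-likelihood test with Benjamini-Hochberg adjustment over all genes tested. WTL + JSH23 replicate 3 stood apart from its group, with a mean chi-square per gene of 8.81 and 9.85 against the other two, where all other pairs within groups lay between 2.39 and 4.75. Counts of genes that involve this group are given with and without this library. Dendritic cell markers (10 genes, Itgax, Flt3 and MHC class II among them) summed to 16704 to 21798 CPM in the 12 libraries. B cell markers summed to at most 0.6 CPM, T cell markers to at most 3.43 CPM and NK cell markers to at most 1.68 CPM. Among the 42 genes, 18 had fractional expected counts in at least 1 library, because reads that fit several genes were divided between them. These 18 included Ifit1, Ifit3, Ifit3b, Oas1a, Usp18, Mx1, Mx2, Ifi204, Phf11b and Ms4a4c, whose values relative to their paralogs are uncertain. Parp9 and Dtx3l overlap each other, Uba7 overlaps Gm20661 and Rtp4 overlaps Masp1.

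Before any LPS the 42 genes were already among the more abundant transcripts. In WT their length-normalized level (TPM) had a median percentile of 96.3 among the genes tested, and the lowest member, Oas2, was at percentile 85.7 with a mean of 68.2 TPM. Ifitm3, which blocks the fusion of virus with endosomes, was the highest at 1961 TPM, followed by Isg15 at 1671 TPM and Mx1 at 1238 TPM. Together the 42 genes held 1.85% of all TPM in WT, 1.36% in WT + JSH23, 1.89% in WTL and 1.25% in WTL + JSH23.

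The tonic level of nearly all of these genes was lower with JSH-23. Of the 42, 39 were lower in WT + JSH23 than in WT at an adjusted p under 0.05, where 22.1% of all genes tested were, and none was higher. Every JSH-23 library lay below every WT library for 40 of the 42, against 27.1% of all genes. The exceptions to the test were Oasl1, Epsti1 and Bst2. The falls were moderate: the median log2 fold change was -0.53 against -0.01 over all genes tested, a median of 69.3% of the WT level was left, and 2 genes, Ifit3b and Ms4a4c, fell by more than 2-fold, as did 2.94% of all genes. Each of the 12 single libraries could be left out without changing the 39. In bulk RNA, fewer cells that express these genes and less RNA per cell cannot be told apart. Markers of other cells moved too: macrophage markers (10 genes, 8 of them lower with JSH-23) summed to 2720 to 2883 CPM in WT and to 1940 to 1992 CPM in WT + JSH23, with none at 0, plasmacytoid dendritic cell markers (6 genes, of which 2 could be tested and 1 of these fell) went from 18.0 to 19.9 CPM to 13.4 to 14.9 CPM with Siglech, Ly6d and Cox6a2 at 3 counts or fewer in every library, and mast cell markers (5 genes, 2 tested and both lower) from 16.2 to 17.6 CPM to 9.0 to 9.56 CPM. Of the 10 dendritic cell markers, 4 were higher (18.8% of all genes) and 2 lower (22.1% of all genes) with JSH-23 without LPS. The part of any of these cells in the lower tonic level was not tested.

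**Figure D1:**
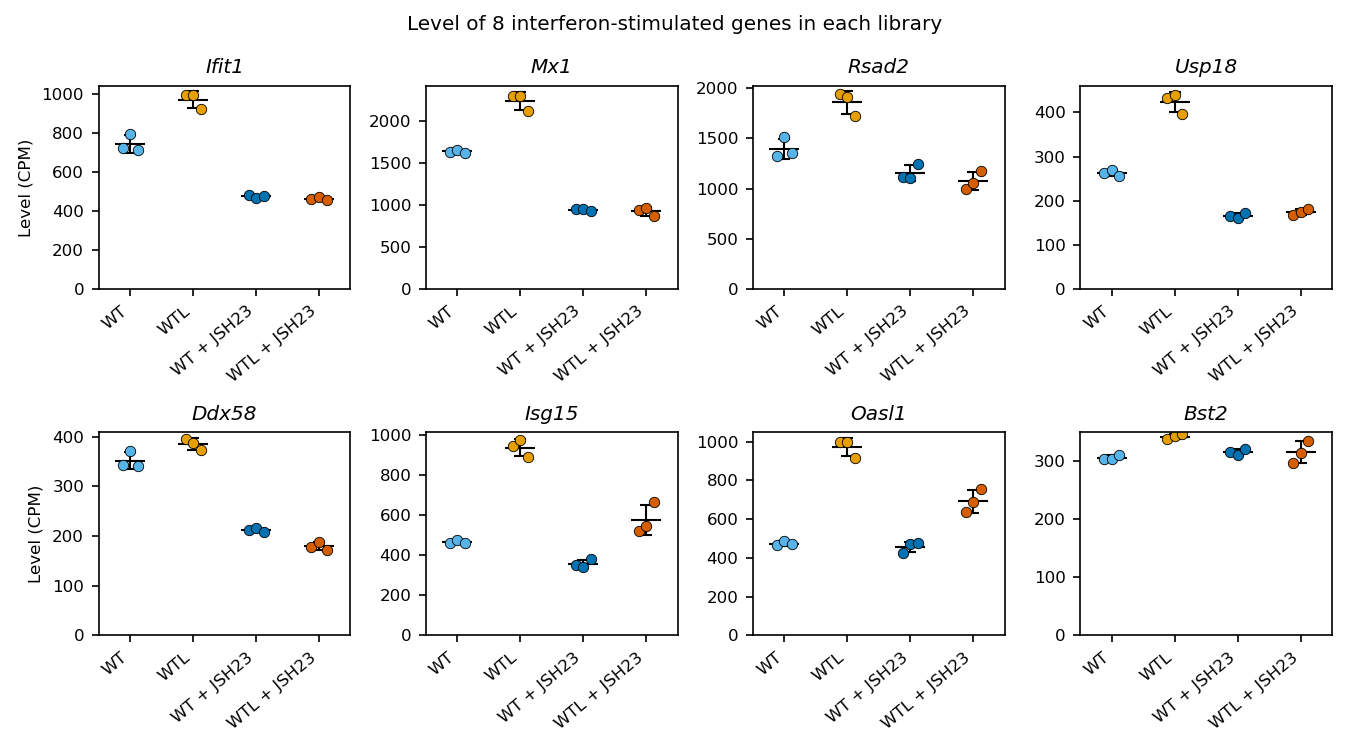
Level in CPM (linear axis from 0) of 8 interferon-stimulated genes in each of the 12 libraries, by group; points are libraries and the black bar with whiskers is the mean ± SD of 3. Ifit1, Mx1, Rsad2, Usp18, Ddx58 and Isg15 were lower in every WT + JSH23 library than in every WT library, whereas Oasl1 and Bst2 overlapped, and in WTL + JSH23 all but Isg15, Oasl1 and Bst2 stayed below WT.

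Among effectors, the Ifit proteins bind foreign RNA and hinder its translation. Ifit1, which binds foreign RNA caps, was at 720.0, 793 and 711 CPM in WT and at 479, 464 and 478 CPM in WT + JSH23. Ifit1 fell by 0.65 on the log2 scale (SE 0.04, adjusted p = 5.69e-11), with no overlap between the groups. Ifit2, an antiviral partner of Ifit1, was at 1626, 1775 and 1610.2 CPM in WT and at 902, 943 and 931 CPM in WT + JSH23. Ifit3, another gene of this family, was at 640.1, 695 and 659.7 CPM in WT and at 342, 332 and 342 CPM in WT + JSH23. Ifit2 fell by 0.85 on the log2 scale (SE 0.04, adjusted p = 9.73e-13), and Ifit3 fell by 0.97 on the log2 scale (SE 0.04, adjusted p = 2.45e-14). Ifit3b, a paralog of Ifit3, was at 113, 121 and 114 CPM in WT and at 41.2, 42 and 42.6 CPM in WT + JSH23. Ifit3b fell by 1.47 on the log2 scale (SE 0.06, adjusted p = 1.10e-14), the largest of the 42 falls. All WT + JSH23 libraries were below all WT libraries for these 4 Ifit genes.

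Eif2ak2, the kinase PKR that stops translation on double-stranded RNA, was at 276, 278 and 263 CPM in WT and at 189, 194 and 181 CPM in WT + JSH23. Eif2ak2 fell by 0.53 on the log2 scale (SE 0.05, adjusted p = 5.55e-09). Oas1a, an oligoadenylate synthetase that activates RNase L, was at 299, 312 and 309 CPM in WT and at 243, 244 and 256 CPM in WT + JSH23. Oas2, a larger synthetase of this family, was at 127, 133 and 129.7 CPM in WT and at 65.1, 69.7 and 66.7 CPM in WT + JSH23. Oas1a fell by 0.31 on the log2 scale (SE 0.04, adjusted p = 8.59e-07), and Oas2 fell by 0.95 on the log2 scale (SE 0.05, adjusted p = 8.64e-13), so that the paralogs differed in size of change while both were separated from WT. Oasl1, an Oas-like protein without synthetase activity, known to limit translation of Irf7, was at 465, 488 and 469.5 CPM in WT and at 428, 469.8 and 477 CPM in WT + JSH23. The Oasl1 libraries overlapped between the groups, and its log2 fold change of -0.05 (SE 0.05, adjusted p = 0.497) did not pass. Oas3, Oasl2, Isg20 and Samd9l, the other effectors, fell by 0.41, 0.14, 0.70 and 0.88, which made 11 of 12 effectors lower.

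The sensors of nucleic acid were all lower. Ddx58, the RNA sensor RIG-I, was at 343, 372 and 341 CPM in WT and at 212, 216 and 207 CPM in WT + JSH23. Ifih1, the long double-stranded RNA sensor MDA5, was at 533, 567 and 519 CPM in WT and at 312, 324 and 319 CPM in WT + JSH23. Ddx58 fell by 0.73 on the log2 scale (SE 0.04, adjusted p = 7.61e-12), and Ifih1 fell by 0.76 on the log2 scale (SE 0.04, adjusted p = 7.78e-12). Zbp1, a sensor of Z-form nucleic acid that can start necroptosis, was at 338, 345 and 335 CPM in WT and at 261, 268 and 266 CPM in WT + JSH23. Zbp1 fell by 0.36 on the log2 scale (SE 0.03, adjusted p = 2.76e-08). Dhx58, the regulator LGP2 of both RNA sensors, fell by 0.45, and all 4 sensors were lower in every JSH-23 library.

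The Isg15 system conjugates a small modifier to proteins. Isg15, the ubiquitin-like modifier, was at 464, 476 and 461 CPM in WT and at 349, 342 and 381 CPM in WT + JSH23. Isg15 fell by 0.39 on the log2 scale (SE 0.06, adjusted p = 4.20e-05) and was separated from WT. Usp18, which removes Isg15 from proteins and restrains signalling at Ifnar2, was at 263, 270.2 and 257 CPM in WT and at 166, 161 and 171 CPM in WT + JSH23. Usp18 fell by 0.67 on the log2 scale (SE 0.04, adjusted p = 4.12e-11). Uba7, the activating enzyme of Isg15, fell by 0.49, and the ligase Herc6 by 0.30, so that the modifier, its activating enzyme, its ligase and its protease were all lower.

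Enzymes of nucleotides limit the building blocks of viral genomes. Rsad2, viperin, which makes a chain-terminating nucleotide, was at 1325, 1509.7 and 1350.3 CPM in WT and at 1116, 1100.2 and 1242 CPM in WT + JSH23. Cmpk2, a mitochondrial nucleotide kinase whose gene neighbours Rsad2, was at 475, 532 and 494 CPM in WT and at 267, 281 and 298 CPM in WT + JSH23. Rsad2 fell by 0.28 on the log2 scale (SE 0.06, adjusted p = 8.73e-04), and Cmpk2 fell by 0.83 on the log2 scale (SE 0.05, adjusted p = 2.40e-11). Samhd1, which hydrolyses deoxynucleotides, was at 1749.8, 1776 and 1735 CPM in WT and at 1294, 1310.4 and 1269.5 CPM in WT + JSH23. Samhd1 fell by 0.44 on the log2 scale (SE 0.04, adjusted p = 3.75e-09), and all 3 nucleotide enzymes were lower in every JSH-23 library.

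Mx1, Mx2, Ifitm3 and Bst2 differed in the size of their change. Mx1, a dynamin-like GTPase, was at 1627, 1656 and 1621 CPM in WT and at 952, 944 and 920.4 CPM in WT + JSH23. Mx2, its neighbour and paralog, annotated as a polymorphic pseudogene, was at 106, 101 and 99.9 CPM in WT and at 61.9, 64.5 and 61.9 CPM in WT + JSH23. Mx1 fell by 0.80 on the log2 scale (SE 0.04, adjusted p = 1.69e-12), and Mx2 fell by 0.70 on the log2 scale (SE 0.05, adjusted p = 1.73e-10). Ifitm3, which hinders viral entry, was at 507, 527 and 520.0 CPM in WT and at 417, 427 and 441 CPM in WT + JSH23. Ifitm3 fell by 0.27 on the log2 scale (SE 0.04, adjusted p = 1.68e-05). Bst2, tetherin, which holds budding virions at the membrane, was at 303, 302 and 310.4 CPM in WT and at 315, 309.5 and 320.1 CPM in WT + JSH23. Bst2 was the single member above WT on the mean, by 0.04 (SE 0.04, adjusted p = 0.41), which did not pass, and its libraries overlapped.

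Ifi204, a nuclear DNA-binding protein, was at 705, 755 and 705 CPM in WT and at 487, 492 and 491 CPM in WT + JSH23. Daxx, a histone chaperone of PML bodies, was at 188, 195 and 193 CPM in WT and at 113, 117 and 121 CPM in WT + JSH23. Ifi204 fell by 0.56 on the log2 scale (SE 0.04, adjusted p = 3.78e-10), and Daxx fell by 0.72 on the log2 scale (SE 0.04, adjusted p = 9.19e-12). Sp100, another PML body protein, fell by 0.39, and the PHD finger genes Phf11b and Phf11d by 0.67 and 0.55. All 4 genes of the ADP-ribosylation group fell as well: Dtx3l, the ligase partner of Parp9, by 0.68, Parp9 by 0.53, Parp12 by 0.37 and Parp14 by 0.31. Ms4a4c, of the membrane-spanning Ms4a family, was at 167, 175 and 158 CPM in WT and at 78.3, 78.4 and 72.5 CPM in WT + JSH23. Ms4a4c fell by 1.13 on the log2 scale (SE 0.08, adjusted p = 1.09e-10). The rest of the list fell by 0.70 (Ifi44), 0.32 (Rtp4, a receptor transport protein), 0.27 (Xaf1, which promotes apoptosis) and 0.18 (Ifi35), while Epsti1 was at -0.06 and did not pass, although its 3 JSH-23 libraries lay below the 3 of WT.

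**Figure D2:**
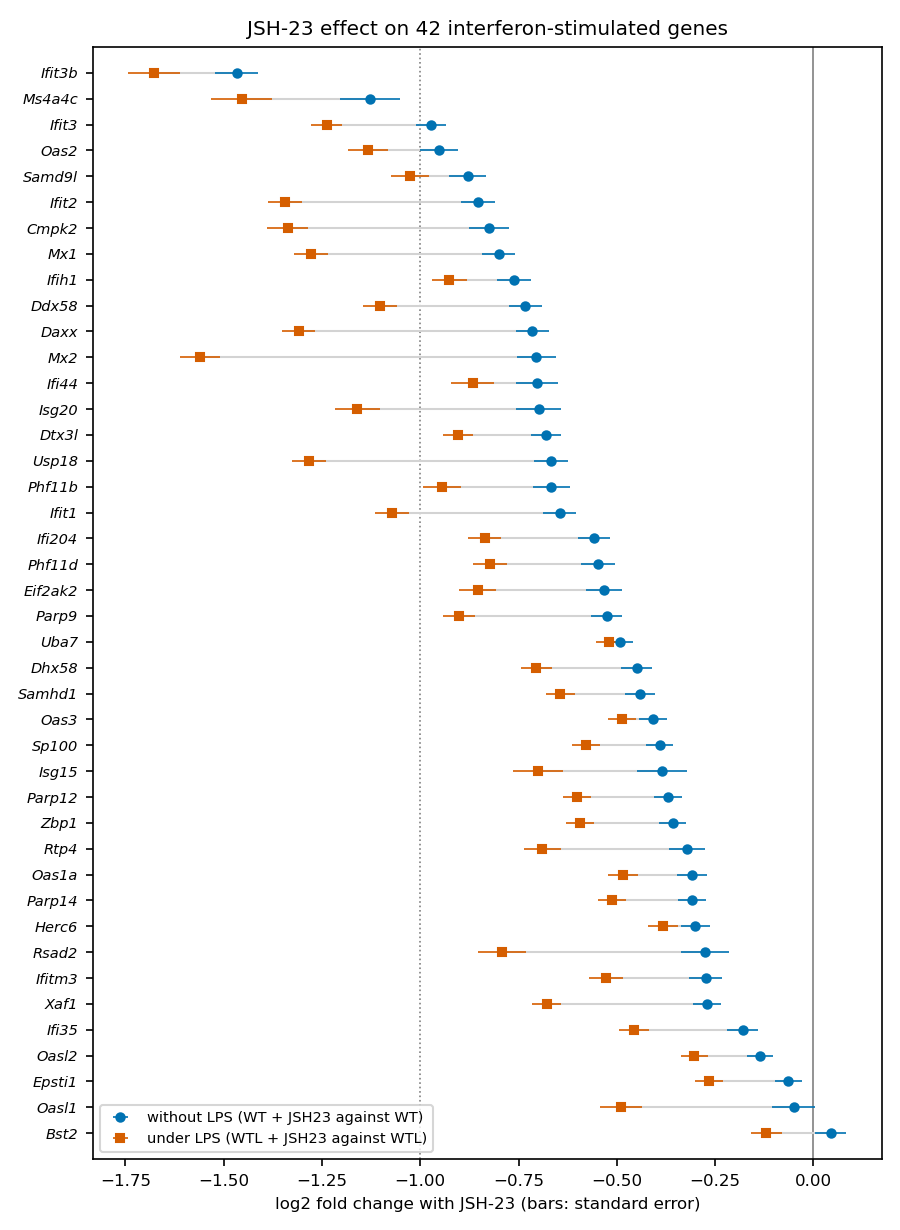
Log2 fold change with JSH-23 of each of the 42 genes, without LPS (circles) and under LPS (squares), with bars of 1 standard error and a dotted line at -1; genes are ordered by the change without LPS. Circles run from -1.47 (Ifit3b) to 0.04 (Bst2) and squares from -1.68 (Ifit3b) to -0.12 (Bst2), with the square left of the circle for each gene.

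LPS raised most of these genes by less than 2-fold on the TMM scale, though not in log2(TPM + 1). Without JSH-23, 33 of the 42 were higher in WTL than in WT at an adjusted p under 0.05 (31.0% of all genes) and 6 were lower (34.7% of all genes), namely Ifit2, Ifit3, Ifit3b, Oas2, Samhd1 and Uba7. More than 2-fold rises were seen for 2, Oasl1 and Isg15 (7.36% of all genes), and a more than 2-fold fall for 1, Ifit3b (9.09% of all genes). The median log2 fold change was 0.31, against -0.05 over all genes. After JSH-23 the median LPS change of the members was 0.00, with 13 of the 42 higher (27.4% of all genes), 13 lower (27.1% of all genes) and 16 that did not pass, and 2, Ifit3 and Ifit3b, fell by more than 2-fold (4.49% of all genes). Without WTL + JSH23 replicate 3 these were 12 higher and 12 lower. The directions after LPS depend on scaling: in log2(TPM + 1), which moved the median of all genes by -0.21 without and -0.14 after JSH-23, 10 members were higher (13.3% of all genes) and 17 lower (54.3% of all genes) without JSH-23, and 5 were higher (13.8% of all genes) and 31 lower (41.4% of all genes) after it. With upper quartile scaling, 8 members were higher (21.5% of all genes) and 20 lower (35.5% of all genes) after JSH-23. The members' share of higher calls after JSH-23 was thus near that of all genes, at 11.9% in log2(TPM + 1) and 19.0% with upper quartile scaling. Oasl1 and Isg15 sat close to the 2-fold line, and 1 of them remained past it without WT replicate 6, WTL replicate 4 or WTL replicate 5.

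The difference between the LPS changes was tested as an interaction, the LPS change after JSH-23 minus that without it. Each LPS change was taken between groups that both had, or both lacked, JSH-23. JSH-23 is given as 3 h in both groups, and was followed by LPS in WTL + JSH23 only. Whether its total time on the cells was the same is not stated, and a longer exposure cannot be told apart from the interaction. The interaction was negative for all 42 genes on the TMM scale and passed for 34, against 8.44% of all genes in this direction. Its median was -0.27 against 0.03 over all genes. It passed for no member in the other direction. Ifit3b, Oas2, Oas3, Samd9l, Ifih1, Uba7, Herc6 and Ifi44 did not pass. The count was 34 without WTL + JSH23 replicate 3 as well, and between 30 and 37 when each library was left out in turn, but 15 in log2(TPM + 1) (2.52% of all genes), where the sign of Oas3 and Uba7 turned. It passed in the positive direction for 9.54% of all genes. A lower tonic level and a negative interaction were both passed by 31 of the 42, against 2.89% of all genes, and by 31 as well without WTL + JSH23 replicate 3. Neutrophil markers (8 genes, 6 tested) summed to 61.9 to 62.9 CPM in WTL and 44.6 to 49.2 CPM in WTL + JSH23. Of these, 3 had a negative interaction that passed (8.44% of all genes). Dendritic cell markers (7 of 10 lower with JSH-23 under LPS, 24.2% of all genes) summed to 20587 to 21798 CPM in WTL and 18345 to 19936 CPM in WTL + JSH23. The part of these cells in the interaction was not tested.

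**Figure D3:**
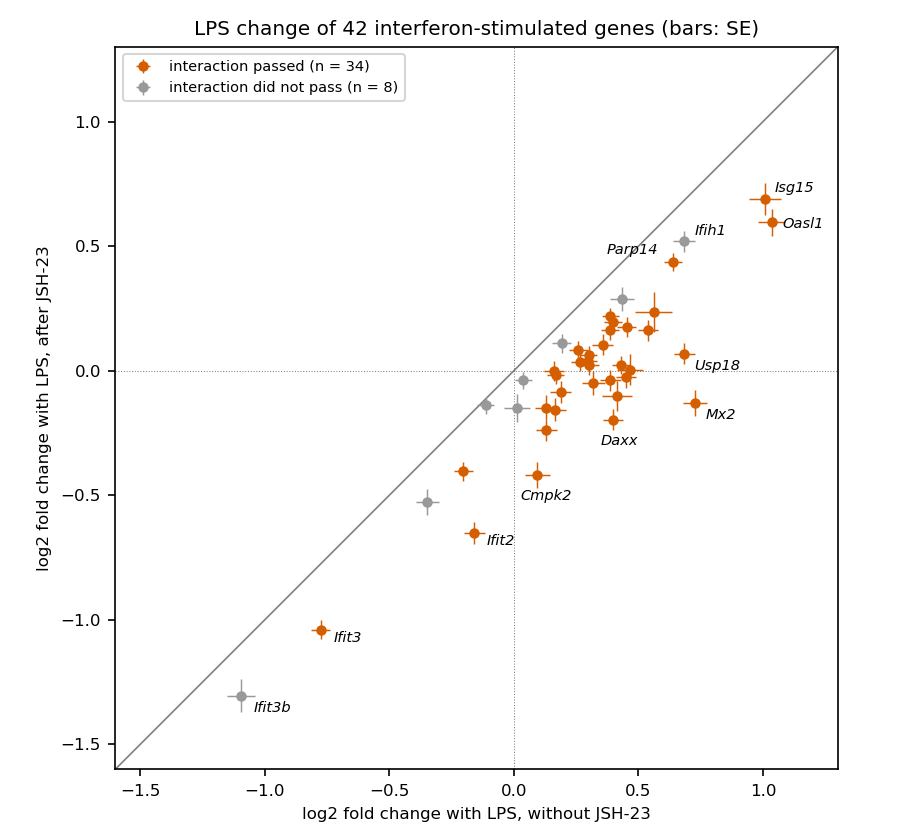
Log2 fold change with LPS of each of the 42 genes, without JSH-23 (x axis) against after JSH-23 (y axis), with bars of 1 standard error; the diagonal marks equal changes and dotted lines mark 0. All 42 points lie below the diagonal, 34 with an interaction that passed (orange) and 8 without (grey); in log2(TPM + 1) the interactions of Oas3 and Uba7 had the other sign.

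The Ifit genes differed among themselves in the direction of the LPS change. Under LPS, Ifit1 stood at 993, 995 and 922 CPM in WTL and at 458, 469.7 and 456 CPM in WTL + JSH23. Ifit1 changed with LPS by 0.39 (SE 0.04, adjusted p = 5.58e-08) without JSH-23 and by -0.04 (SE 0.04, adjusted p = 0.463) after it, and the interaction was -0.43 (SE 0.06, adjusted p = 3.95e-05). The rise of Ifit1 was not seen after JSH-23, where the groups with and without LPS overlapped. Under LPS, Ifit2 stood at 1546, 1515 and 1425 CPM in WTL and at 571, 613 and 584 CPM in WTL + JSH23. Ifit2 changed with LPS by -0.16 (SE 0.04, adjusted p = 0.00245) without JSH-23 and by -0.65 (SE 0.04, adjusted p = 3.16e-11) after it, and the interaction was -0.49 (SE 0.06, adjusted p = 9.04e-06). Under LPS, Ifit3 stood at 392, 399 and 374 CPM in WTL and at 165, 169 and 161 CPM in WTL + JSH23. Ifit3 changed with LPS by -0.78 (SE 0.04, adjusted p = 1.47e-13) without JSH-23 and by -1.04 (SE 0.04, adjusted p = 3.18e-15) after it, and the interaction was -0.26 (SE 0.06, adjusted p = 0.00198). Under LPS, Ifit3b stood at 54.1, 55.9 and 52.5 CPM in WTL and at 17.6, 18.7 and 14.4 CPM in WTL + JSH23. Ifit3b changed with LPS by -1.10 (SE 0.05, adjusted p = 1.58e-13) without JSH-23 and by -1.31 (SE 0.07, adjusted p = 4.10e-13) after it, and the interaction was -0.21 (SE 0.09, adjusted p = 0.103). Ifit2, Ifit3 and Ifit3b were lower with LPS in either setting, and the JSH-23 libraries were the lowest of the 4 groups for each.

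Under LPS, Eif2ak2 stood at 327, 300.2 and 288 CPM in WTL and at 172, 175 and 159.8 CPM in WTL + JSH23. Eif2ak2 changed with LPS by 0.16 (SE 0.05, adjusted p = 0.00374) without JSH-23 and by -0.16 (SE 0.05, adjusted p = 0.00839) after it (-0.15 without it with log2(TPM + 1)), and the interaction was -0.32 (SE 0.07, adjusted p = 0.00182). The WTL + JSH23 libraries of Eif2ak2 were the lowest of all 12. Under LPS, Oas1a stood at 373, 368 and 359 CPM in WTL and at 253, 260.1 and 273 CPM in WTL + JSH23. Oas1a changed with LPS by 0.26 (SE 0.04, adjusted p = 3.83e-06) without JSH-23 and by 0.08 (SE 0.04, adjusted p = 0.0785) after it (-0.077 without it with log2(TPM + 1), -0.0034 after it with upper quartile scaling, -0.12 after it with log2(TPM + 1)), and the interaction was -0.18 (SE 0.05, adjusted p = 0.0261). Under LPS, Oas2 stood at 102, 103 and 101 CPM in WTL and at 44.9, 51.1 and 43.7 CPM in WTL + JSH23. Oas2 changed with LPS by -0.35 (SE 0.05, adjusted p = 1.18e-06) without JSH-23 and by -0.53 (SE 0.05, adjusted p = 1.56e-08) after it, and the interaction was -0.18 (SE 0.07, adjusted p = 0.0771). Under LPS, Oasl1 stood at 998, 999 and 918 CPM in WTL and at 635, 687 and 756 CPM in WTL + JSH23. Oasl1 changed with LPS by 1.03 (SE 0.05, adjusted p = 3.39e-13) without JSH-23 and by 0.60 (SE 0.05, adjusted p = 5.28e-09) after it, and the interaction was -0.44 (SE 0.08, adjusted p = 3.41e-04). For Oasl1, which had kept its tonic level, the LPS rise was smaller in all 3 WTL + JSH23 libraries, so that its lower level under LPS arose in the LPS part.

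Under LPS, Ddx58 stood at 397, 387 and 373 CPM in WTL and at 178, 188 and 173 CPM in WTL + JSH23. Ddx58 changed with LPS by 0.13 (SE 0.04, adjusted p = 0.00909) without JSH-23 and by -0.24 (SE 0.04, adjusted p = 6.98e-05) after it (-0.23 without it with log2(TPM + 1)), and the interaction was -0.37 (SE 0.06, adjusted p = 1.69e-04). Ddx58 was higher with LPS in WTL and lower with LPS after JSH-23. Under LPS, Ifih1 stood at 903, 884 and 812 CPM in WTL and at 452, 473 and 443 CPM in WTL + JSH23. Ifih1 changed with LPS by 0.68 (SE 0.04, adjusted p = 9.46e-12) without JSH-23 and by 0.52 (SE 0.04, adjusted p = 1.87e-09) after it, and the interaction was -0.17 (SE 0.06, adjusted p = 0.0684). Ifih1 kept a rise after JSH-23, from the lower tonic level. Under LPS, Zbp1 stood at 419, 426 and 409 CPM in WTL and at 269, 278 and 284 CPM in WTL + JSH23. Zbp1 changed with LPS by 0.30 (SE 0.03, adjusted p = 1.41e-07) without JSH-23 and by 0.06 (SE 0.04, adjusted p = 0.126) after it (-0.015 without it with log2(TPM + 1), -0.02 after it with upper quartile scaling, -0.15 after it with log2(TPM + 1)), and the interaction was -0.24 (SE 0.05, adjusted p = 0.00205).

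Under LPS, Isg15 stood at 948, 975 and 891 CPM in WTL and at 521, 547 and 664 CPM in WTL + JSH23. Isg15 changed with LPS by 1.01 (SE 0.06, adjusted p = 9.63e-12) without JSH-23 and by 0.69 (SE 0.06, adjusted p = 8.18e-09) after it, and the interaction was -0.32 (SE 0.09, adjusted p = 0.0183). The 3 WTL + JSH23 libraries of Isg15 spread from 521 to 664 CPM, with replicate 3 the highest, and all were below WTL. Under LPS, Usp18 stood at 432, 439.8 and 397 CPM in WTL and at 168, 174 and 180.2 CPM in WTL + JSH23. Usp18 changed with LPS by 0.68 (SE 0.04, adjusted p = 5.73e-12) without JSH-23 and by 0.07 (SE 0.04, adjusted p = 0.19) after it (-0.016 after it with upper quartile scaling, -0.15 after it with log2(TPM + 1)), and the interaction was -0.62 (SE 0.06, adjusted p = 6.61e-07). The rise of Usp18 passed in WTL and did not pass after JSH-23, where the groups overlapped. Under LPS, Rsad2 stood at 1939, 1909 and 1727 CPM in WTL and at 996, 1054 and 1172 CPM in WTL + JSH23. Rsad2 changed with LPS by 0.41 (SE 0.06, adjusted p = 4.00e-06) without JSH-23 and by -0.10 (SE 0.06, adjusted p = 0.165) after it, and the interaction was -0.52 (SE 0.09, adjusted p = 2.30e-04). Under LPS, Cmpk2 stood at 546, 551 and 503 CPM in WTL and at 198, 219 and 217 CPM in WTL + JSH23. Cmpk2 changed with LPS by 0.09 (SE 0.05, adjusted p = 0.11) without JSH-23 and by -0.42 (SE 0.05, adjusted p = 6.71e-07) after it (-0.23 without it with log2(TPM + 1)), and the interaction was -0.51 (SE 0.07, adjusted p = 4.51e-05). The neighbours Rsad2 and Cmpk2 had nearly the same interaction although their tonic falls differed. Under LPS, Samhd1 stood at 1547, 1537 and 1488 CPM in WTL and at 975, 1029 and 923 CPM in WTL + JSH23. Samhd1 changed with LPS by -0.20 (SE 0.04, adjusted p = 7.64e-05) without JSH-23 and by -0.40 (SE 0.04, adjusted p = 9.54e-09) after it, and the interaction was -0.20 (SE 0.05, adjusted p = 0.0115).

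Under LPS, Mx1 stood at 2299.9, 2289.8 and 2113 CPM in WTL and at 939, 962 and 863 CPM in WTL + JSH23. Mx1 changed with LPS by 0.45 (SE 0.04, adjusted p = 4.08e-09) without JSH-23 and by -0.03 (SE 0.04, adjusted p = 0.61) after it, and the interaction was -0.48 (SE 0.06, adjusted p = 8.91e-06). The Mx1 level of WTL + JSH23 overlapped that of WT + JSH23. Under LPS, Mx2 stood at 172, 178 and 157 CPM in WTL and at 55.7, 61.3 and 55.4 CPM in WTL + JSH23. Mx2 changed with LPS by 0.73 (SE 0.05, adjusted p = 1.63e-11) without JSH-23 and by -0.13 (SE 0.05, adjusted p = 0.0436) after it, and the interaction was -0.86 (SE 0.07, adjusted p = 8.08e-08). Mx2 had the largest interaction of the 42 genes. Under LPS, Ifitm3 stood at 665, 695 and 629.7 CPM in WTL and at 435, 479 and 466 CPM in WTL + JSH23. Ifitm3 changed with LPS by 0.36 (SE 0.04, adjusted p = 2.01e-07) without JSH-23 and by 0.10 (SE 0.04, adjusted p = 0.0446) after it (-0.11 after it with log2(TPM + 1)), and the interaction was -0.25 (SE 0.06, adjusted p = 0.00522). Under LPS, Bst2 stood at 337, 342 and 345 CPM in WTL and at 296, 314 and 333 CPM in WTL + JSH23. Bst2 changed with LPS by 0.16 (SE 0.04, adjusted p = 0.00123) without JSH-23 and by 0.00 (SE 0.04, adjusted p = 0.965) after it (-0.19 without it with log2(TPM + 1), 0.0074 after it with RLE scaling), and the interaction was -0.16 (SE 0.06, adjusted p = 0.0475). Bst2 libraries of WTL + JSH23 lay between 296 and 333 CPM and were all below WTL.

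Under LPS, Ifi204 stood at 921, 900.1 and 849 CPM in WTL and at 496, 522 and 476 CPM in WTL + JSH23. Ifi204 changed with LPS by 0.30 (SE 0.04, adjusted p = 1.53e-06) without JSH-23 and by 0.02 (SE 0.04, adjusted p = 0.658) after it (-0.033 without it with log2(TPM + 1), -0.061 after it with upper quartile scaling, -0.19 after it with log2(TPM + 1)), and the interaction was -0.28 (SE 0.06, adjusted p = 0.00212). Under LPS, Daxx stood at 246, 264 and 249 CPM in WTL and at 97.0, 105 and 105 CPM in WTL + JSH23. Daxx changed with LPS by 0.40 (SE 0.04, adjusted p = 2.35e-08) without JSH-23 and by -0.20 (SE 0.04, adjusted p = 5.88e-04) after it, and the interaction was -0.59 (SE 0.06, adjusted p = 8.07e-07). Daxx was lower in every WTL + JSH23 library than in every WT + JSH23 library. Under LPS, Ms4a4c stood at 257, 247 and 235 CPM in WTL and at 92.9, 103 and 73.1 CPM in WTL + JSH23. Ms4a4c changed with LPS by 0.56 (SE 0.07, adjusted p = 9.01e-07) without JSH-23 and by 0.24 (SE 0.08, adjusted p = 0.0165) after it (-0.022 after it with log2(TPM + 1)), and the interaction was -0.33 (SE 0.11, adjusted p = 0.0416). Replicate 3 of WTL + JSH23 was the lowest of its group for Ms4a4c.

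Some calls near the threshold rested on single libraries. The interaction of Isg15 did not pass without WTL replicate 5, WT + JSH23 replicate 3, WTL + JSH23 replicate 1 (each left out alone: -0.29 to -0.25, adjusted p = 0.0507 to 0.0587). The interaction of Oas1a did not pass without WT replicate 4, WTL replicates 4 and 5, WT + JSH23 replicate 3, WTL + JSH23 replicate 1 (each left out alone: -0.17 to -0.15, adjusted p = 0.0593 to 0.0786). The interaction of Oasl2 did not pass without WT replicate 4, WT + JSH23 replicate 3 (each left out alone: -0.15 to -0.15, adjusted p = 0.053 to 0.0589). The interaction of Ms4a4c did not pass without WT replicates 4 and 6, WTL replicates 4 and 5, WT + JSH23 replicates 1 and 2 (each left out alone: -0.33 to -0.29, adjusted p = 0.0727 to 0.104). The interaction of Bst2 did not pass without WT replicates 4, 5 and 6, WTL replicates 4, 5 and 6, WT + JSH23 replicates 1 and 3, WTL + JSH23 replicates 1 and 2 (each left out alone: -0.18 to -0.13, adjusted p = 0.0621 to 0.122). The LPS change without JSH-23 of Ddx58 did not pass without WT replicate 6 (0.11, adjusted p = 0.0538). The LPS change without JSH-23 of Phf11b did not pass without WT replicates 4 and 6, WTL replicates 4 and 5 (each left out alone: 0.10 to 0.11, adjusted p = 0.076 to 0.0961). The LPS change after JSH-23 of Phf11b did not pass without WT + JSH23 replicate 3, WTL + JSH23 replicate 1 (each left out alone: -0.14 to -0.11, adjusted p = 0.0512 to 0.0824). The LPS change after JSH-23 of Ifitm3 did not pass without WT replicates 4 and 6, WTL replicate 4, WT + JSH23 replicates 1 and 2, WTL + JSH23 replicates 2 and 3 (each left out alone: 0.07 to 0.10, adjusted p = 0.0534 to 0.193). The LPS change after JSH-23 of Mx2 did not pass without WT replicates 5 and 6, WTL replicate 4, WT + JSH23 replicates 1, 2 and 3, WTL + JSH23 replicates 1 and 3 (each left out alone: -0.14 to -0.10, adjusted p = 0.0502 to 0.135). The LPS change after JSH-23 of Ms4a4c did not pass without WT + JSH23 replicate 3, WTL + JSH23 replicates 1 and 2 (each left out alone: 0.12 to 0.21, adjusted p = 0.0661 to 0.165). That of Ms4a4c did not pass with upper quartile scaling (0.15, adjusted p = 0.113) or with DESeq2 (0.24, adjusted p = 0.0579) either. Upper quartile scaling also ended the calls of the LPS change without JSH-23 of Eif2ak2, Ddx58, Bst2 and Phf11b (0.05 to 0.08, adjusted p = 0.0761 to 0.368) and that after JSH-23 of Ifitm3 (0.02, adjusted p = 0.72), and RLE scaling and DESeq2 that of Mx2 (both -0.12, adjusted p = 0.063 and 0.0689). With DESeq2 the interaction of Ms4a4c did not pass either (-0.35, adjusted p = 0.0986). With no filter on low counts those of Oas1a, Oasl2 and Bst2 did not pass (-0.17 to -0.16, adjusted p = 0.057 to 0.0907). The interactions of Mx2, Usp18, Daxx, Rsad2, Cmpk2, Ifit1, Ifit2 and Mx1 passed whichever library was left out.

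Eif2ak2, Ddx58, Mx2, Daxx and Phf11b, 5 of the 42 against 0.181% of all genes, rose with LPS in the absence of JSH-23 and fell with LPS in its presence, all at an adjusted p under 0.05 on the TMM scale. They are singled out here for that pattern. Phf11b changed by 0.13 (SE 0.05, adjusted p = 0.0202) without and -0.15 (SE 0.05, adjusted p = 0.0144) after JSH-23. The count was 5 without WTL + JSH23 replicate 3 too, but not of the same genes. The fall after JSH-23 then did not pass for Mx2 (-0.10, adjusted p = 0.123) and passed for Rsad2 (-0.17, adjusted p = 0.0157). The count was 2 without WT replicate 6, and 3 without WTL replicate 4, WT + JSH23 replicate 3 or WTL + JSH23 replicate 1. It was 8 with upper quartile scaling and 2 in log2(TPM + 1), where Eif2ak2, Ddx58 and Phf11b were lower with LPS in either setting. The 0.181% is for TMM scaling of all 12 libraries, and the shares of all genes in the other settings are not given here.

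On the linear scale the lower level under LPS can be divided exactly into the difference already present without LPS and the difference in what LPS added. In TMM-scaled CPM a median of 55.8% of the difference was already present without LPS, and this part made up at least 50% for 27 of the 42 genes (a median of 55% and 27 genes without WTL + JSH23 replicate 3). These shares depend on scaling. In TPM, Ifit1 averaged 498 in WT, 517 in WTL, 317 in WT + JSH23 and 268 in WTL + JSH23, which makes its tonic share larger than in CPM. For Ifit1, 267 of a difference of 508 CPM was tonic, and LPS added 229 CPM without and -12.6 CPM after JSH-23. For Isg15 the tonic part was 30.3%, since LPS added 471 CPM without and 219.9 CPM after JSH-23. Oasl1 was almost wholly on the LPS side, with 5.80% of its difference present without LPS, and Bst2 had a tonic part of the opposite sign (-34.7%). Oas2, Ifit3, Ifit3b and Uba7 had tonic parts over 100% (113%, 146%, 199% and 104%), since LPS lowered or moved them by fewer CPM after JSH-23. Ranges of the LPS difference over the 9 pairs of libraries did not overlap and were lower with JSH-23 for 32 genes, against 11.5% of all genes, overlapped for 8 and were higher for 2, Ifit3 and Ifit3b. Without WTL + JSH23 replicate 3 they were lower for 32 and higher for 2. In deposited TPM 18 were lower without overlap. The share of all genes in TPM is not given here, so that this count cannot be set against it.

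**Figure D4:**
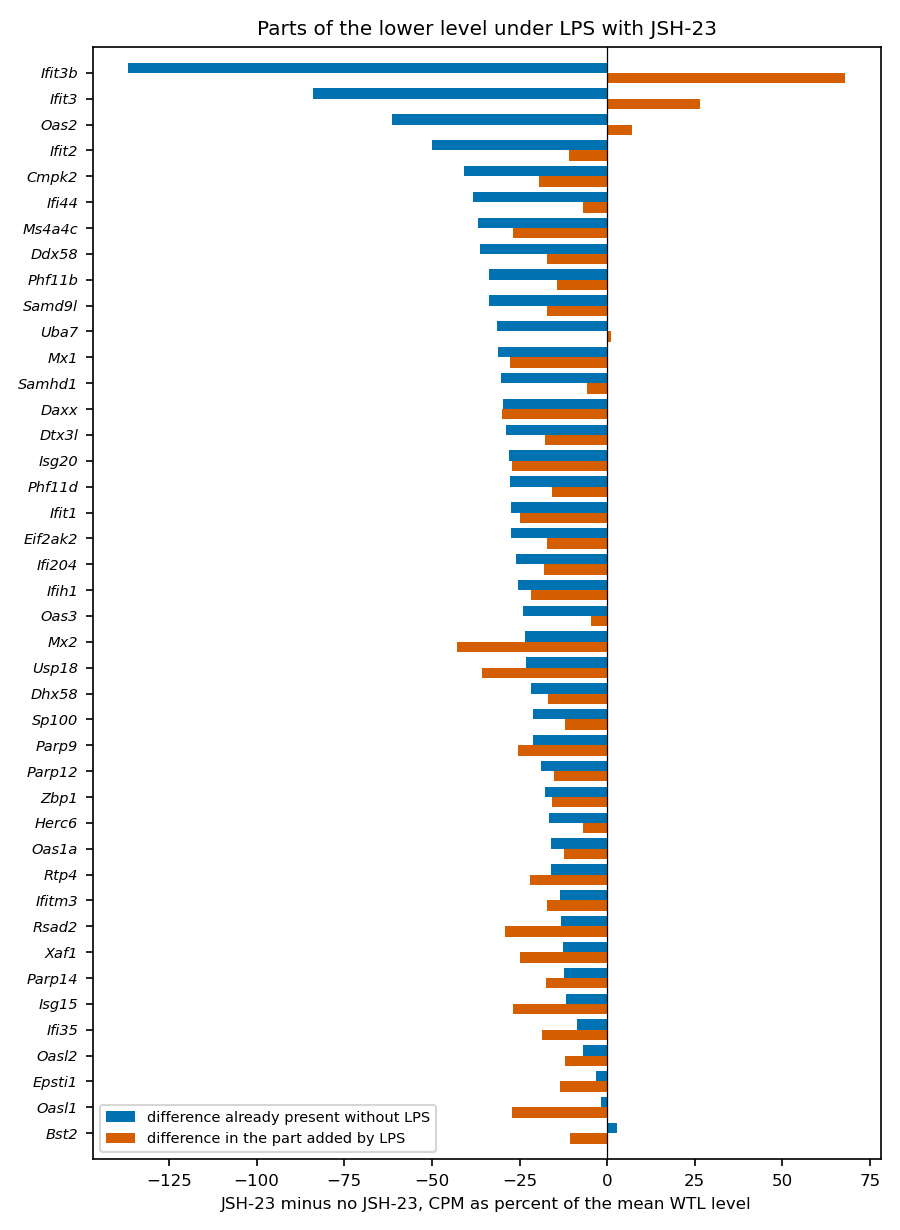
Difference in CPM between groups with and without JSH-23, as a percent of the mean WTL level, divided for each gene into the part already present without LPS (blue) and the difference in the part added by LPS (orange); negative values are lower with JSH-23. The blue part is negative for all genes but Bst2, and the orange part is positive for Ifit3b, Ifit3, Oas2 and Uba7.

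The outcome of both parts was the level under LPS. All 42 genes were lower in WTL + JSH23 than in WTL (24.2% of all genes), all 42 without overlap between the libraries (27.0% of all genes), and 14 by more than 2-fold (3.25% of all genes). Without WTL + JSH23 replicate 3 these counts were 42, 42 and 13. The median log2 fold change was -0.83 against 0.02 over all genes, and a median of 56.3% of the WTL level was left (56.9% without that library). The largest falls were those of Ifit3b (-1.68), Mx2 (-1.56) and Ms4a4c (-1.45), followed by Ifit2 (-1.34), Cmpk2 (-1.34), Daxx (-1.31), Usp18 (-1.28), Mx1 (-1.28), Ifit3 (-1.24), Isg20 (-1.16), Oas2 (-1.13), Ddx58 (-1.10), Ifit1 (-1.07) and Samd9l (-1.03), all past 2-fold. The smallest was that of Bst2 at -0.12 (SE 0.04, adjusted p = 0.0165), which did not pass without WTL + JSH23 replicate 1 (-0.08, adjusted p = 0.139) and was 0.0030 in log2(TPM + 1). This comparison and the tonic one share no libraries, but each shares a group with an LPS comparison. After LPS and JSH-23 together, 36 of the 42 genes had a mean level below that of untreated WT, 35 with every library below every WT library (33.7% of all genes), and without WTL + JSH23 replicate 3 these were 37 and 36. The exceptions on the mean were Oasl1 at 146% of WT, Isg15 at 124%, Epsti1 at 109.6%, Parp14 at 109%, Oasl2 at 106% and Bst2 at 103%. Macrophage markers were lower in this comparison as well, at 2120 to 2258 CPM in WTL and 1621 to 1644 CPM in WTL + JSH23 (8 of 10 genes passed). Mast cell markers (2 of 5 tested, both lower) summed to 27.1 to 33.6 CPM in WTL and 13.9 to 17.7 CPM in WTL + JSH23, and all 6 neutrophil markers tested were lower, with the sums given above. Dendritic cell markers were lower as well in 7 of 10 cases and higher in 1, where 24.2% of all genes were lower and 24.5% higher. The part of any of these cells in the lower level was not tested.

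Neighbouring genes on a chromosome did not always share a pattern. Rsad2 and Cmpk2, 12751 bases apart on chromosome 12, had tonic log2 fold changes of -0.28 and -0.83, yet interactions of -0.52 and -0.51. Oasl1 and Oasl2, 11005 bases apart on chromosome 5, changed with LPS by 1.03 and 0.39 without JSH-23. Oas2 and Oas3, 3244 bases apart on the same chromosome, had tonic changes of -0.95 and -0.41. Phf11b and Phf11d on chromosome 14 had tonic changes of -0.67 and -0.55 and interactions of -0.28 and -0.27. Differences between neighbours were not tested.

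Most genes that carry the interferon signal were lower with JSH-23, though not all. Ifnb1, interferon beta, was at 0.40 ± 0.07 CPM (SD, n = 3) in WT and 1.81 ± 0.31 CPM in WTL, with at most 17 and 49 counts in a library. In WT + JSH23 it had at most 3 counts in each library, too few for a fold, and in WTL + JSH23 at most 7, with 0.21 ± 0.09 CPM. The Ifnb1 transcript was thus rare in all 12 libraries. Ifnar1 changed with JSH-23 by -0.75 (SE 0.04, adjusted p = 1.08e-11) without and -0.56 (SE 0.04, adjusted p = 9.09e-10) under LPS, and Ifnar2 by -0.19 and -0.30. Stat2 changed by -0.41 without LPS and by -0.63 under LPS, Irf9 by -0.14 and -0.35, and Irf7, itself induced by interferon, by -0.39 and -0.62, all of which passed. Of 24 genes of the pathway, 18 were lower (22.1% of all genes) and 2 higher (18.8% of all genes) with JSH-23 without LPS (median -0.40). The 2 that were higher, named after their values were seen, were the adaptors Ticam1 (0.21) and Mavs (0.23), and Jak1, Irf3, Irf5 and Trim25 did not pass. Under LPS 21 were lower (24.2% of all genes) and 2 higher (24.5% of all genes), with a median of -0.42. Mavs (0.70) and Tlr4 (0.82) were then higher, Ticam1 was lower (-0.18), and Irf3 did not pass. The interaction passed for 6 in the negative (8.44% of all genes) and 5 in the positive direction (9.54% of all genes), with a median of -0.04. Without WTL + JSH23 replicate 3 the counts under LPS were 21 and 2, and those of the interaction 6 and 7.

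Other lists of related genes were set beside the 42 genes. Guanylate-binding proteins and immunity-related GTPases (17 genes), which interferon gamma and type I interferon induce and which attack vacuoles of intracellular microbes, had a median tonic change below that of the 42 genes: 16 of 17 were lower with JSH-23 without LPS (22.1% of all genes), 8 of these by more than 2-fold (2.94% of all genes), with a median of -0.996. In LPS-treated cells 16 of 17 were lower with JSH-23, with or without WTL + JSH23 replicate 3 (24.2% of all genes), with a median of -1.22. Their interaction passed for 5 genes in each direction, with and without WTL + JSH23 replicate 3 (8.44% of all genes negative, 9.54% positive), with a median of -0.04. Members and feedback genes of the NF-κB pathway (14 genes, Nfkbia and Tnfaip3 among them) were all higher with LPS without JSH-23 (31.0% of all genes), with a median of 1.25, and 13 of 14 were higher after it, with or without WTL + JSH23 replicate 3 (27.4% of all genes), with a median of 1.10. Without LPS 10 of 14 were lower with JSH-23 (22.1% of all genes) and 1 was higher (18.8% of all genes), with a median of -0.23. In LPS-treated cells 13 of 14 were lower with JSH-23, with or without WTL + JSH23 replicate 3 (24.2% of all genes), with a median of -0.39. The interaction was negative and passed for 5 (8.44% of all genes, median -0.11), or 6 without WTL + JSH23 replicate 3. Without WT replicate 4, WT replicate 5, WTL replicate 4, WTL replicate 5, WT + JSH23 replicate 3 or WTL + JSH23 replicate 1 the count of interactions was 3. Differences between the lists were not tested.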

How the data were processed

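RNA-seq of 12 BMDC libraries was used, with groups taken from the sample titles. The authors trimmed reads with Trim Galore, aligned them to mm10 with STAR (2.6.0c in the submitters' processing notes) and estimated expected counts per gene with RSEM, which divides reads that fit several genes. The deposited TPM values are the authors' length-normalized abundances. The labels name an rRNA depletion kit and the study's methods a stranded poly(A) kit, and which applied was not settled. Symbols came from GENCODE M21, and promoters from RefSeq.

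Expected counts were rounded and tested with edgeR 4.0.16 (filterByExpr, TMM, quasi-likelihood F-test on all 12 libraries, 8 residual degrees of freedom) in R 4.3.3, with Benjamini-Hochberg adjustment over 14357 genes and a threshold of 0.05, with a 2-fold limit where stated. SE is the absolute log2 fold change divided by the square root of F. CPM is not adjusted for length. On simulated data the fit was checked for recovery of known changes. Alternatives were RLE and upper quartile scaling, other filters, DESeq2 1.42.0, limma 3.58.1 on log2(TPM + 1), a replicate block and leaving out each library.

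The 42 genes and all lists were chosen with earlier results of these data known. Of the 42, every gene is accounted for: values per library are given for 18 fixed genes and for the 3 largest rises and falls of each comparison where the group with more had 10 CPM or more on average, and others by changes and counts. Phf11b was named after its values were seen. Oasl2, Epsti1 and the remaining names appear with changes only. Of the interferon pathway list, 1 gene is counted with the list, and its own values are not reported here.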

Additional observations from a re-analysis of the deposited data

Results flagged for a closer look

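The response to LPS was not the same with JSH-23 as without, by the interaction term of the edgeR model at a Benjamini-Hochberg adjusted p under 0.05, for 34 of the 42 interferon-stimulated genes. Values are the log2 LPS change after JSH-23 minus that without it, and each is negative. The first were Mx2 (-0.86), Usp18 (-0.62), Daxx (-0.59), Rsad2 (-0.52), Cmpk2 (-0.51), Ifit2 (-0.49), Mx1 (-0.48), Isg20 (-0.46), Oasl1 (-0.44) and Ifit1 (-0.43). In the middle lay Xaf1 (-0.41), Parp9 (-0.38), Ddx58 (-0.37), Rtp4 (-0.37), Ms4a4c (-0.33), Eif2ak2 (-0.32), Isg15 (-0.32), Phf11b (-0.28), Ifi204 (-0.28), Ifi35 (-0.28), Phf11d (-0.27) and Ifit3 (-0.26). The remaining ones were Dhx58 (-0.26), Ifitm3 (-0.25), Zbp1 (-0.24), Parp12 (-0.23), Dtx3l (-0.22), Parp14 (-0.20), Samhd1 (-0.20), Epsti1 (-0.20), Sp100 (-0.19), Oas1a (-0.18), Oasl2 (-0.17) and Bst2 (-0.16). Of these 34, 15 passed in log2(TPM + 1). No member showed the opposite sign on the TMM scale.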

How the results depend on the processing

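The lower level with JSH-23 did not depend on the settings tried: 39 members were lower without LPS under RLE and upper quartile scaling, both other filters, DESeq2, limma on log2(TPM + 1) and each left-out library, and 41 or 42 under LPS, with medians between -0.55 and -0.51 and between -0.86 and -0.68. The LPS changes did depend on scaling. In log2(TPM + 1), 10 members were higher (13.3% of all genes) and 17 lower (54.3%) with LPS without JSH-23 (0 higher and 2 lower by over 2-fold, median -0.014). After JSH-23, 5 were higher (13.8%) and 31 lower (41.4%, median -0.23), and 15 had a negative interaction that passed (2.52% of all genes). In deposited TPM 18 had a smaller LPS difference with no overlap, and the share of all genes for this is not given here. With upper quartile scaling, 8 were higher (21.5% of all genes) and 20 lower (35.5%) after JSH-23 (median -0.084), and 0 rose by over 2-fold without JSH-23. The same count was 1 with no filter and with a mean of at least 1 CPM, where the median after JSH-23 was -0.0023 and -0.00084, and between 1 and 2 when single libraries were left out; that median then ran from -0.020 to 0.028. Without a fold threshold, the 2-fold counts with LPS became 33 higher and 6 lower without JSH-23 and 13 higher and 13 lower after it, and those of members lower with JSH-23 became 39 without LPS and 42 under LPS; a 2-fold threshold left 0 interactions. With log2(TPM + 1), the LPS change without JSH-23 took the other sign for 16 of the 42 genes, 8 of them not described one by one and the rest Eif2ak2 -0.15, Oas1a -0.077, Ddx58 -0.23, Zbp1 -0.015, Cmpk2 -0.23, Bst2 -0.19, Ifi204 -0.033 and Phf11b -0.21. With upper quartile scaling, the LPS change after JSH-23 took the other sign for 8 of the 42 genes, 4 of them not described one by one and the rest Oas1a -0.0034, Zbp1 -0.020, Usp18 -0.016 and Ifi204 -0.061. With log2(TPM + 1), the LPS change after JSH-23 took the other sign for 14 of the 42 genes, 8 of them not described one by one and the rest Oas1a -0.12, Zbp1 -0.15, Usp18 -0.15, Ifitm3 -0.11, Ifi204 -0.19 and Ms4a4c -0.022. With RLE scaling, the LPS change after JSH-23 took the other sign for Bst2 0.0074. With DESeq2, the LPS change after JSH-23 took the other sign for Bst2 0.0073. With log2(TPM + 1), the JSH-23 change under LPS took the other sign for Bst2 0.0030. With log2(TPM + 1), the interaction took the other sign for Oas3 0.022 and Uba7 0.11. Leaving out single libraries gave values between -0.046 and 0.035 for Bst2 in the LPS change after JSH-23. Leaving out single libraries gave values between -0.012 and 0.055 for Ifi204 in the LPS change after JSH-23. Leaving out single libraries gave values between -0.059 and 0.018 for Mx1 in the LPS change after JSH-23. In these cases the cause was not tested, except that TPM is not scaled by TMM. The numbers of WT and WTL did not pair the libraries (correlations of same-numbered libraries between -0.04 and 0.04; between 0.06 and 0.34 with JSH-23, where not every library correlated best with its own number). A fit with the replicate block gave 34 members higher and 6 lower with LPS without JSH-23, 14 and 14 after it, and 37 negative interactions. The comparisons with and without JSH-23 share no replicate numbers, so no block could be fitted to them. The depth left Ifnb1 at 0 to 3 counts in WT + JSH23, which limits any fold for it.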
